A study of Mus musculus with 13 samples.

Results

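The genes described here are 46 mouse protease inhibitor genes of 5 families, measured in cultured prostate progenitor/stem cells with and without the active form of vitamin D. They were taken by symbol, as all genes whose name in the platform annotation is Serpinb, Spink, Wfdc, Stfa or Cst followed by a number. They are 46 of the 18193 genes that the arrays measured under a single symbol: 18 Serpinb, 7 Spink, 11 Wfdc, 2 Stfa and 8 Cst genes. Each gene was represented by 1 probe set, chosen by its mean signal over the 13 arrays, the highest being kept; 7 of the 46 had more than 1. The families themselves were selected with earlier results of these data known, among them the 48 h changes of Stfa2l1, Spink12, Wfdc3 and Serpinb2. Counts of members are therefore a description, set beside the same count over all genes. A further 4 symbols of the pattern (Serpinb9e, Serpinb9f, Serpinb9h and Stfa1) occurred only on 2 probe sets that are annotated to several genes, and these were left out.

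The cells came from the prostates of wild-type B1/6; 127/SVEV mice aged 10 wk and were used at passage 22. All groups are thus a long-passaged epithelial culture of adult wild-type origin, not tissue. Vehicle cultures received ethanol at 0.1%, and treated cultures received 1,25-dihydroxyvitamin D3 (1,25D) at 100 nM. RNA was taken after 6 h or after 48 h, the longer exposure with medium renewed daily. Vehicle 6 h, 1,25D 6 h and vehicle 48 h have 3 arrays each, and 1,25D 48 h has 4. The labels do not say whether the arrays of a group came from separate cultures, so p-values measure the spread between these samples, which may be technical. Values are log2 signals as deposited, and a difference of 1 is a doubling. A gene was called where limma's moderated test gave a Benjamini-Hochberg adjusted p under 0.05 over all 45037 probe sets; "rose" and "fell" refer to calls.

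Protease inhibitors set the balance between proteases and the proteins they cut. Serpinb genes encode clade B serpins, mostly intracellular proteins that trap a serine or cysteine protease when it cleaves their exposed loop. Spink and Wfdc genes encode small, disulfide-rich secreted proteins with Kazal or whey acidic protein domains, many of which block trypsin-like or elastase-like serine proteases at epithelial surfaces. Stefins (Stfa genes) act inside cells and cystatins (Cst genes) mostly outside them, both by filling the active site of papain-like cysteine cathepsins.

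Cyp24a1, the vitamin D-degrading enzyme and the standard target of the vitamin D receptor, was 8.5 log2 units above vehicle at 6 h and 7.83 at 48 h (adjusted p = 3.3e-11 and 4e-11), with no overlap between treated and vehicle arrays. The basal markers Krt5, Krt14, Krt15, Trp63 and Itga6 all lay above the lowest 40% of probe sets, and their summed signal was 14.54 to 14.78 in every array. Array medians were 5.569 to 5.665. Vehicle 6 h replicate 1 and 1,25D 48 h replicate 4 stood apart, with interquartile ranges of 3.03 and 2.95 against 3.27 to 3.46 in the others. Where leaving out both arrays ended or added a call at 48 h or in vehicle over time, both values are given.

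Of the 46 members, 28 had a mean signal above the lowest 40% of all probe sets. The other 18 had means of 3.46 to 5.06, and none differed between 1,25D and vehicle by more than 0.366 at either time. Wfdc5 (5.06) lay just below that limit and Wfdc15b (5.16) just above it. Detection calls were not used here, so a low signal does not show that a transcript was absent. Those above it were 11 of 18 Serpinb, 4 of 7 Spink, 9 of 11 Wfdc, both Stfa and 2 of 8 Cst genes. Stfa2l1 (mean 5.73) was above it only through the 1,25D 48 h arrays, its other 9 arrays having 4.22 to 4.61. The Cst genes above the limit were Cst3 (10.54), the secreted cystatin C, and Cst6 (7.7), cystatin M/E of the epidermis. Probe sets of these families can share sequence with close relatives, so a signal cannot be assigned to a single member with certainty.

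After 48 h of 1,25D, 12 of the 46 members were called, 5 of them higher and 7 lower. Both stefins rose, Stfa2l1 by 4.04 and Stfa3 by 2.31 on the log2 scale, and of 18 Serpinb genes 3 rose (Serpinb2, Serpinb8 and Serpinb9b) and 0 fell. The calls in 2 other families were all lower: 2 of 7 Spink genes (Spink12 and Spink5) and 5 of 11 Wfdc genes (Wfdc3, Wfdc17, Wfdc21, Wfdc12 and Wfdc18) fell, and no member of either family rose. Of 8 Cst genes none was called. Over all genes, 1.43% were called higher at 48 h and 0.951% lower, so the called members made up 26.1% of 46 against 2.39% of 18193 genes. The members' median change was -0.0498 against -0.00239 for all genes. The arrays of vehicle and 1,25D did not overlap for 18 members (39.1%), 8 higher and 10 lower, and for 12.6% of all genes. The families were selected with the largest of these changes in view, so no test is attached to these counts. In cultures as in tissue, fewer cells that make a transcript and less transcript per cell cannot be told apart.

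**Figure D1:**
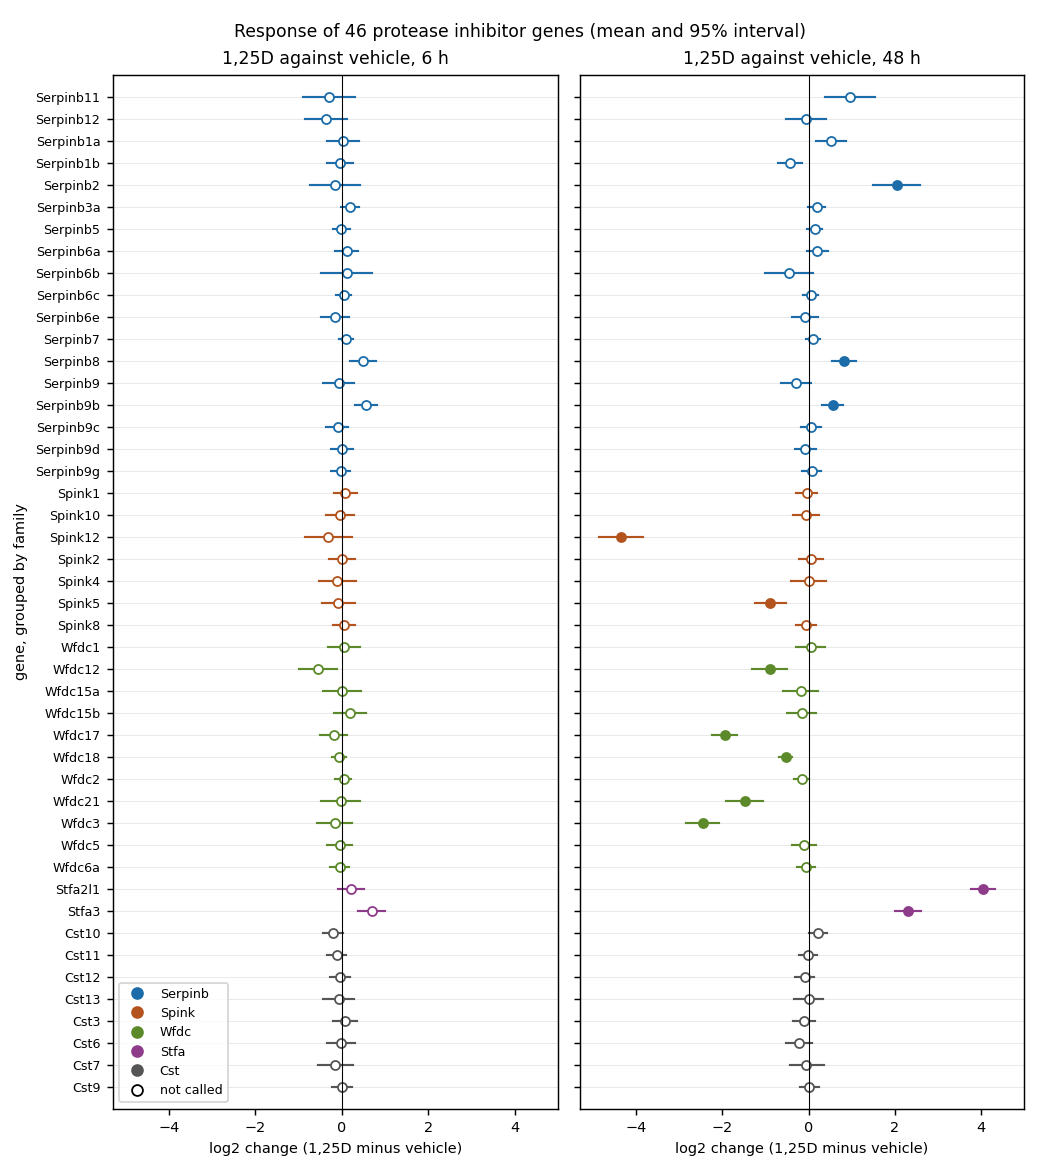
Change of all 46 genes, 1,25D minus vehicle on the log2 scale, at 6 h (left) and 48 h (right). Circles are the difference of group means and bars its 95% interval from limma; filled circles passed an adjusted p under 0.05. No circle is filled at 6 h and 12 are filled at 48 h, from Spink12 at -4.35 to Stfa2l1 at 4.04.

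At 6 h none of the 46 members was called with limma. Over all genes 0.687% were called higher and 0.165% lower, 0.852% together, so 0 of 46 is near that share. Unadjusted p was under 0.05 for 4 of 46 members (Stfa3, Serpinb9b, Serpinb8 and Wfdc12) and for 1276 of all 18193 genes, a similar share. Changes ran from -0.56 in Wfdc12 to 0.69 in Stfa3, and 43 members stayed within 0.5 of 0. The members' median change was -0.0272, and that of all genes -0.0203. Stfa3 had the smallest adjusted p (0.0616), followed by Serpinb9b (change 0.56, adjusted p = 0.0684). Both were called, in the same direction, with no intensity trend, without the lowest 40% of probe sets and with array quality weights, and Stfa3 also after quantile normalization (adjusted p = 0.0474). The 1,25D and vehicle arrays did not overlap for 6 members, 5 higher and 1 lower, while 10.2% of all genes did not overlap. Besides the 4 genes with a low unadjusted p these were Serpinb7 and Stfa2l1, whose changes were 0.1 and 0.21.

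The stefins are inhibitors of cysteine cathepsins. Stfa2l1 had log2 signals of 4.22, 4.35 and 4.22 in vehicle and 4.49, 4.41 and 4.53 in 1,25D at 6 h. At 48 h it had 4.61, 4.55 and 4.61 in vehicle and 8.71, 8.85, 8.63 and 8.34 in 1,25D. All 9 arrays outside the 1,25D 48 h group were low, and the 4 arrays of that group lay far above them. The low arrays are within the range of the 18 dim members, so the baseline of the fold is not shown to be above background. At 48 h the change was 4.04 (16.5-fold, SE 0.13, limma adjusted p = 1.12e-09), and it exceeded the 6 h change by 3.83 (adjusted p = 6.98e-07).

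Stfa3 started from a higher level and climbed in both conditions. Its signals at 6 h were 6.32, 6.52 and 6.7 in vehicle and 7.12, 7.06 and 7.42 in 1,25D. At 48 h they were 7.81, 8.05 and 8.0 in vehicle and 10.37, 10.09, 10.35 and 10.23 in 1,25D. Vehicle and 1,25D arrays did not overlap at either time. The 48 h change was 2.31 (4.94-fold, SE 0.14, adjusted p = 3.63e-07), 1.62 more than at 6 h (adjusted p = 0.00164), and vehicle cultures alone gained 1.45 between 6 h and 48 h (adjusted p = 1.86e-05). A probe set left out because it is annotated to several genes, a stefin among them, had group means of 5.33 and 6.03 at 6 h and 9.82 and 12.37 at 48 h, in vehicle and 1,25D respectively. Its 48 h change was 2.54 (adjusted p = 1.13e-06) and it also rose by 4.49 over time in vehicle.

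Stfa2l1 and Stfa3 lie on chromosome 16 with 9 protein-coding genes between them in RefSeq GRCm38.p6. The 250 bases before their annotated starts are shown because both genes rose and the windows are alike. Capitals mark the 8 stretches of at least 10 bases that are identical in an alignment of the pair. The Stfa2l1 window is chr16:36156561-36156810 on the plus strand and the Stfa3 window is chr16:36455393-36455642 on the minus strand, both written 5′ to 3′ in the direction of the gene.
Stfa2l1: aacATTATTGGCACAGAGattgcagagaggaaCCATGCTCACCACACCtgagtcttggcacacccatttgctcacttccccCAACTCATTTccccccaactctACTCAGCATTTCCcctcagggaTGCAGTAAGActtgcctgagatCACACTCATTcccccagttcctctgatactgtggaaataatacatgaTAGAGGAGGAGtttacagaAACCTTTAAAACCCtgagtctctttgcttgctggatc
Stfa3: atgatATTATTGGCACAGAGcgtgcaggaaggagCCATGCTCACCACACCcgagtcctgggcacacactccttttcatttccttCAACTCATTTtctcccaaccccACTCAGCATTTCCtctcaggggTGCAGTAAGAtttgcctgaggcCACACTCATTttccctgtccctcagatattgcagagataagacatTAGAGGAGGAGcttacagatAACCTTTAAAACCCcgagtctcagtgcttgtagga
The alignment held 206 identical bases in 256 columns (80.5%), with a longest identical stretch of 16. Among the 6 members compared (with Wfdc17, Wfdc18, Serpinb2 and Serpinb8), the 12 pairs from different gene clusters had 41.8% to 51.5% identity. The neighbours Wfdc17 and Wfdc18, which both fell at 48 h, had 47.9% identity and a longest identical stretch of 8.

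Serpinb2 encodes plasminogen activator inhibitor type 2, an inhibitor of urokinase and tissue plasminogen activator. Its signals at 6 h were 5.65, 5.94 and 6.49 in vehicle and 5.78, 5.56 and 6.25 in 1,25D. At 48 h they were 5.22, 4.93 and 5.85 in vehicle and 7.51, 7.49, 7.51 and 7.01 in 1,25D. The groups overlapped at 6 h and were wholly apart at 48 h. At 48 h the change was 2.05 (4.14-fold, SE 0.25, adjusted p = 0.000491). It exceeded the 6 h change by 2.21 (adjusted p = 0.0187); that difference was not called in 5 of the fits that leave out 1 array, where adjusted p reached 0.0767. The arrays concerned were replicates 1 and 2 of 1,25D 6 h, replicates 1 and 2 of vehicle 48 h and replicate 1 of 1,25D 48 h.

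Serpinb8, an intracellular serpin that inhibits furin and trypsin-like proteases in the test tube, changed in smaller steps. It had 7.53, 7.79 and 7.39 in vehicle and 8.09, 7.85 and 8.23 in 1,25D at 6 h. At 48 h it had 8.14, 8.27 and 8.17 in vehicle and 8.89, 9.12, 9.09 and 8.95 in 1,25D. Vehicle and 1,25D arrays were apart at both times, but only the 48 h change of 0.82 was called (1.77-fold, SE 0.13, adjusted p = 0.00449), the 6 h change being 0.49 (adjusted p = 0.281). A second Serpinb8 probe set gave 0.66 at 48 h and was not called (adjusted p = 0.255).

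Serpinb9b is a close relative of Serpinb9, the granzyme B inhibitor of cytotoxic lymphocytes and of cells that they could attack. Its signals were 5.9, 5.88 and 6.03 in vehicle 6 h, 6.51, 6.52 and 6.45 in 1,25D 6 h, 5.99, 6.07 and 5.83 in vehicle 48 h, and 6.52, 6.45, 6.61 and 6.51 in 1,25D 48 h. The treated arrays thus lay above all vehicle arrays by a like amount at both times, 0.56 at 6 h and 0.56 at 48 h. The 48 h change was called (1.48-fold, SE 0.11, adjusted p = 0.0238), but leaving out any vehicle 48 h array, or replicate 1 or 3 of the treated group, ended the call, with adjusted p as high as 0.172.

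**Figure D2:**
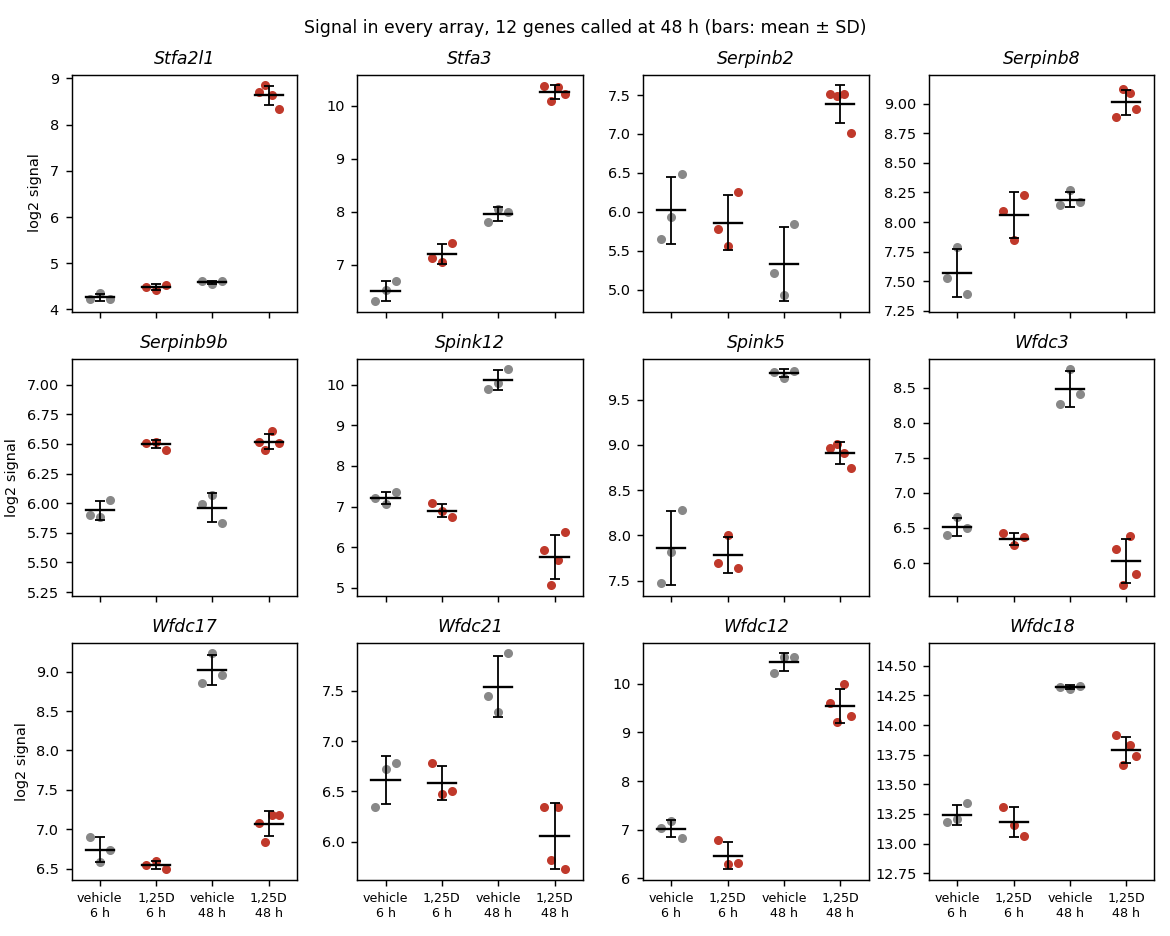
Log2 signal in every array for the 12 genes called at 48 h, in vehicle (grey) and 1,25D (red) at 6 h and 48 h; bars are group mean ± SD, and each panel has its own axis range. In the first 5 panels (Stfa2l1 to Serpinb9b) the 1,25D 48 h arrays lie above the vehicle 48 h arrays, and in the other 7 below them.

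The other 15 Serpinb genes were not called at 48 h. Serpinb11 had the largest change among all members not called, 0.96 (SE 0.26, adjusted p = 0.137), with 6.23, 6.04 and 6.41 in vehicle and 7.56, 6.73, 7.66 and 6.81 in 1,25D. Its 48 h groups did not overlap, and the change was 1.09 when both arrays that stand apart were left out (adjusted p = 0.0278). Serpinb1a, an inhibitor of neutrophil elastase, had a change of 0.52 (adjusted p = 0.231) and, without those arrays, 0.64 (adjusted p = 0.0193). Leaving out 1,25D 48 h replicate 4 alone also gave 0.64 (adjusted p = 0.036). A second Serpinb1a probe set had a 48 h change of 0.15 in the fit of all arrays and was not called. Serpinb1b had a change of -0.43 (adjusted p = 0.227) and Serpinb6b one of -0.45, the lowest value among the members not called. The well measured Serpinb6a (mean signal 12.31), an inhibitor of cathepsin G, and Serpinb5 (11.4), the maspin gene first described in breast epithelium, had changes of 0.2 and 0.14.

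Among the Kazal-type genes, Spink12 fell furthest of all members. Its signals at 6 h were 7.22, 7.07 and 7.35 in vehicle and 7.08, 6.88 and 6.74 in 1,25D. At 48 h they were 9.9, 10.04 and 10.38 in vehicle and 5.92, 5.07, 5.69 and 6.36 in 1,25D. Every 1,25D 48 h array was lower than every other array, and every vehicle 48 h array higher than every other. The 48 h change was -4.35 (20.4-fold lower, SE 0.24, adjusted p = 1.79e-07), and it lay below the 6 h change by a difference of -4.03 (adjusted p = 9.96e-05).

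Spink5 encodes LEKTI, the multi-domain inhibitor of kallikreins in the outer epidermis. It had 7.47, 7.82 and 8.28 in vehicle and 7.7, 8.01 and 7.64 in 1,25D at 6 h, and 9.81, 9.74 and 9.82 in vehicle and 8.97, 9.01, 8.91 and 8.74 in 1,25D at 48 h. The groups overlapped at 6 h and not at 48 h, when both conditions were above all 6 h arrays. Its 48 h change was -0.89 (1.85-fold lower, SE 0.17, adjusted p = 0.0152) and was not called when any single vehicle 48 h array was removed (adjusted p as high as 0.0824). The other 5 Spink genes, among them the pancreatic trypsin inhibitor gene Spink1, had changes of at most 0.06 in either direction.

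The whey acidic protein genes gave the most falls. Wfdc3 had 6.4, 6.65 and 6.5 in vehicle and 6.43, 6.26 and 6.37 in 1,25D at 6 h. At 48 h it had 8.27, 8.76 and 8.41 in vehicle and 6.2, 5.69, 6.38 and 5.84 in 1,25D. The vehicle 48 h arrays alone were high. The log2 change at 48 h was -2.45 (5.46-fold lower, SE 0.18, adjusted p = 2.69e-06), lying below that at 6 h by a difference of -2.28 (adjusted p = 0.000788). A second, dimmer Wfdc3 probe set had a change of 0.13 at 48 h and of -0.03 over time in vehicle, and was called in neither.

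Wfdc17 is known from activated macrophages and microglia. It had 6.9, 6.58 and 6.74 in vehicle and 6.55, 6.6 and 6.5 in 1,25D at 6 h, and 8.86, 9.23 and 8.96 in vehicle and 7.08, 6.84, 7.18 and 7.18 in 1,25D at 48 h. Here too the vehicle 48 h arrays stood above all others. The change was -1.94 (3.85-fold lower, SE 0.14, adjusted p = 2.31e-06), and the difference from 6 h was -1.76 (adjusted p = 0.000884).

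Wfdc21 had 6.34, 6.72 and 6.78 in vehicle and 6.78, 6.47 and 6.5 in 1,25D at 6 h. At 48 h it had 7.45, 7.29 and 7.87 in vehicle and 6.34, 5.82, 6.34 and 5.73 in 1,25D, so that the groups were apart only at the later time. Its change of -1.48 was called (2.79-fold lower, SE 0.2, adjusted p = 0.00108), while the difference of the responses was not (-1.45, adjusted p = 0.0564). Wfdc18, long known as an extracellular proteinase inhibitor of mammary epithelium, was the member with the strongest signal: 13.18, 13.21 and 13.34 in vehicle and 13.31, 13.16 and 13.06 in 1,25D at 6 h, and 14.32, 14.3 and 14.33 in vehicle and 13.92, 13.66, 13.83 and 13.74 in 1,25D at 48 h. The 48 h groups did not overlap, and the change was -0.53 (1.44-fold lower, SE 0.0676, adjusted p = 0.000651). The Wfdc18 probe set is of a type that can match several transcripts.

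Wfdc12 was the member with the largest gain over time in vehicle. It had 7.04, 7.18 and 6.84 in vehicle and 6.78, 6.3 and 6.31 in 1,25D at 6 h, and 10.23, 10.56 and 10.55 in vehicle and 9.61, 9.21, 10.0 and 9.33 in 1,25D at 48 h. The 1,25D arrays lay below the vehicle arrays at both times, and all 48 h arrays lay above all 6 h arrays. The 48 h change was -0.9 (1.87-fold lower, SE 0.19, adjusted p = 0.0321). Leaving out any vehicle 48 h array, or treated replicate 1, 2 or 4, ended the call, with adjusted p as high as 0.173, and so did leaving out both arrays that stand apart (-0.84, adjusted p = 0.0524). Wfdc2, which encodes HE4 of the male reproductive tract and had a mean signal of 12.77, had a 48 h change of -0.16 and was not called.

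The change at 48 h differed from that at 6 h for 6 of the 46 members, 3 in each direction: Stfa2l1, Stfa3 and Serpinb2 were further up at 48 h, and Spink12, Wfdc3 and Wfdc17 further down. Over all genes 0.346% were called higher and 0.286% lower in this comparison.

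In vehicle, 17 members changed between 6 h and 48 h, 16 higher and 1 lower, against 9.84% of all genes called higher and 8.75% lower. The largest gains were in Wfdc12 (3.42, adjusted p = 1.54e-07), Spink12 (2.89), Wfdc17 (2.28), Wfdc3 (1.96), Spink5 (1.93) and Serpinb1a (1.92). Stfa3, Serpinb6b (1.43), Serpinb11 (1.38), Wfdc18 (1.07), Wfdc21 (0.92), Wfdc2 (0.85) and Cst3 (0.84) followed. Smaller gains were called in Serpinb8 (0.62), Serpinb9 (0.61) and Serpinb1b (0.6), and Serpinb5 fell by 0.32. By family, 6 of 11 Wfdc, 6 of 18 Serpinb, 2 of 7 Spink, 1 of 2 Stfa and 1 of 8 Cst genes rose. Left-out arrays ended the calls of Serpinb9 (replicates 1 and 2 at 6 h, 1 and 3 at 48 h; adjusted p as high as 0.116), Serpinb5 (the same 4 arrays; up to 0.114), Wfdc21 (vehicle 48 h replicate 3; 0.0586) and Serpinb1b (vehicle 48 h replicate 3; 0.0544). Without both arrays that stand apart Serpinb5 was not called (-0.29, adjusted p = 0.0816), while Serpinb2 was called lower (-0.88, adjusted p = 0.0295) and Wfdc15a higher (0.52, adjusted p = 0.0377). The second probe sets of Serpinb1a (0.34, adjusted p = 0.0657), Serpinb8 (0.36), Serpinb9 (0.41) and Wfdc3 and the other 3 of Serpinb5 were not called over time in vehicle.

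With 1,25D, 14 members changed over the same time, 13 higher and 1 lower, where 10.9% of all genes were called higher and 12.5% lower. The one that fell was Spink12, by 1.14 (adjusted p = 0.00386). Spink5 rose by 1.13, Wfdc17 by 0.52 and Wfdc18 by 0.61, while Wfdc3 and Wfdc21 were not called. Wfdc12 rose by 3.07, Serpinb11 by 2.64, Serpinb1a by 2.42, Stfa3 by 3.06 and Stfa2l1 by 4.16.

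Set side by side, the 7 members that fell with 1,25D at 48 h had these vehicle gains and 1,25D changes: Spink12 2.89 and -4.35, Wfdc3 1.96 and -2.45, Wfdc17 2.28 and -1.94, Wfdc21 0.92 and -1.48, Wfdc12 3.42 and -0.9, Spink5 1.93 and -0.89, and Wfdc18 1.07 and -0.53. Both numbers of a gene rest on the same 3 vehicle 48 h arrays, with opposite sign, so they are not independent of each other. The group means show where each gene ended. Spink12 went from 7.21 ± 0.14 (SD, n = 3) in vehicle 6 h to 10.11 ± 0.244 (n = 3) in vehicle 48 h and 5.76 ± 0.535 (n = 4) in 1,25D 48 h, below its starting level. Wfdc12 went from 7.02 ± 0.174 to 10.44 ± 0.185 and 9.54 ± 0.351, so that most of its gain was present with 1,25D too.

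Most members lie in clusters, taken here as runs with at most 12 protein-coding genes between a member and the next. Spink10, Cst6, Spink4, Spink2, Wfdc1 and Spink8 lay alone. The 48 h calls differed from cluster to cluster, and their spread was not tested. On chromosome 11 the neighbours Wfdc17, Wfdc18 and Wfdc21, with no other protein-coding gene between them in the RefSeq table, all fell. On chromosome 1 the run from Serpinb5 to Serpinb8 holds 7 members, of which only Serpinb2 and Serpinb8, with 1 protein-coding gene between them, were called. On chromosome 13, 11 Serpinb members lie together and Serpinb9b alone was called. On chromosome 18 Spink5 and Spink12 fell and Spink1 was not called. On chromosome 2 Wfdc12 alone was called among Wfdc5, Wfdc12, Wfdc15a and Wfdc15b, Wfdc3 alone among Wfdc2, Wfdc6a and Wfdc3, and none of 7 Cst genes. Neighbouring members can share sequence, so they are not independent of each other.

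**Figure D3:**
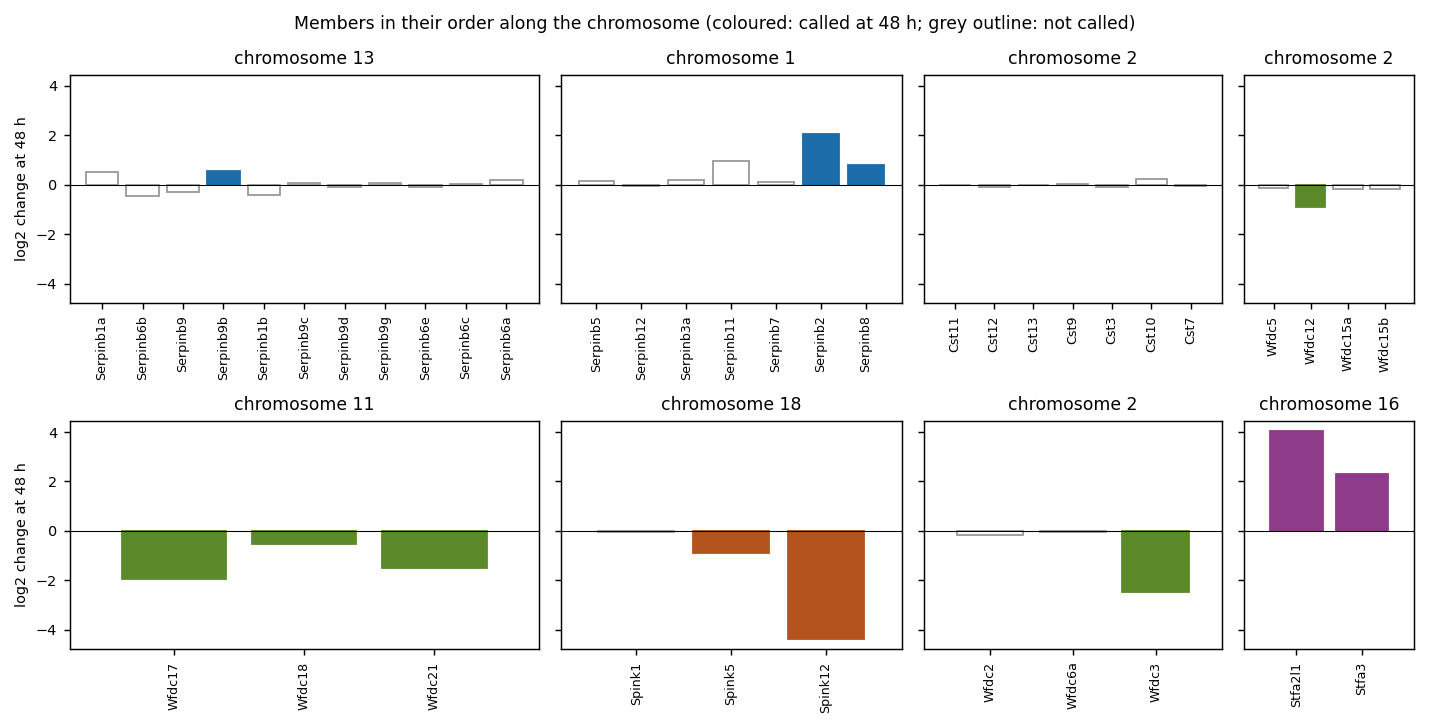
Log2 change at 48 h (1,25D minus vehicle) of the members that have a neighbouring member, one panel per cluster, in their order along the chromosome; distances are not drawn. Coloured bars passed an adjusted p under 0.05 and grey outlines did not: all bars are coloured in the Wfdc cluster of chromosome 11 and in the Stfa pair of chromosome 16, and none among the Cst genes of chromosome 2.

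Serpinb2 and Serpinb8 are shown with their upstream windows because both rose and each holds a match to the AP-1 motif TGANTCA, in capitals. The windows are chr1:107511173-107511422 for Serpinb2 and chr1:107589756-107590005 for Serpinb8, both on the plus strand of GRCm38.p6. Serpinb2 has 2 windows in the table and the first is shown.
Serpinb2: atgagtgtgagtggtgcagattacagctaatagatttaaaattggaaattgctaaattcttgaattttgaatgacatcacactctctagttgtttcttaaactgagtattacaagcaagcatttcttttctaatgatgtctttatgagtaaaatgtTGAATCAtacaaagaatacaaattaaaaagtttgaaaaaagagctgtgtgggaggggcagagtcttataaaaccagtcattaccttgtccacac
Serpinb8: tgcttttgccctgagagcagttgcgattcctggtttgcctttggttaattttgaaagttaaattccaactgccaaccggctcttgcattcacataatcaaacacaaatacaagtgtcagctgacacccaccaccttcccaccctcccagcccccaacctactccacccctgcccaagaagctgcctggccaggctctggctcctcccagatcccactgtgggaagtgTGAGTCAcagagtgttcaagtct
The match begins 94 bases before the start of Serpinb2 and 23 bases before that of Serpinb8, and the windows are 42.1% identical. Of 46 members, 34 had such a window, 9 of the called ones included. The motif, searched on both strands, occurred in 7 of the 34 (Cst10, Serpinb11, Serpinb12, Serpinb2, Serpinb5, Serpinb7 and Serpinb8), in 2 of the 9, and in 6.75% of all 32851 windows of the same length. All of the 7 except Cst10 belong to the Serpinb run on chromosome 1, and only Serpinb2 and Serpinb8 among them were called at 48 h. The motif thus occurred in members that were not called as well, and no link between motif and response was tested. The DR3 vitamin D response element, the direct repeat bound by the vitamin D receptor, matched in 0 of the 34 and in 0.0396% of all windows. Members were counted by gene, with a match in any of its windows, and the background by window, so these shares are not directly comparable. A match is a description of letters only, and its absence concerns only the 250 bases searched.

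Proteases were followed in a cathepsin list and in a list of serine proteases that such inhibitors act on or that share the epithelium. Of 11 cysteine cathepsins and legumain, the targets of stefins and cystatins, all were measured and 0 were called at 6 h or 48 h with 1,25D (median change at 48 h 0.0915, against -0.00239 for all genes). Over all genes 0.852% were called at 6 h and 2.39% at 48 h, so 0 of 11 is near that share. In vehicle over time 5 of the 11 rose (Ctsb, Ctsh, Ctso, Ctsc and Lgmn), against 9.84% of all genes. Of 37 measured serine proteases, 11 rose and 0 fell at 48 h (median 0.125), against 1.43% and 0.951% of all genes. Among the 11 that rose, only Tmprss11e, Htra1 and Plat were not kallikrein (Klk) genes, so the count mostly describes that family. Kallikrein probe sets may share sequence too, and whether their signals are independent was not tested. By mean signal Klk1b16 and Klk1b27, which rose, lay at the percentiles 23.3 and 36.1 of all probe sets, in the range of the dim members. The smallest p-values were those of Klk1b1 (4.09, adjusted p = 3e-07), Klk1b11 (2.61), the membrane-anchored Tmprss11e (2.8) and Klk8 (1.48), and all but Tmprss11e belong to the kallikrein family. Klk7, an epidermal kallikrein that LEKTI inhibits, rose by 1.78 (adjusted p = 0.00043), and Plat, the tissue plasminogen activator that Serpinb2 inhibits, by 0.84 (adjusted p = 0.0399). These last were picked for naming because of their known inhibitors, after their values had been seen. Other such proteases on the list were not called at 48 h. Among them were Plau, the urokinase gene (0.08), Furin (-0.42) and the kallikrein gene Klk5 (0.09). By mean signal Klk5 lay at the percentile 39.5 of all probe sets and Plau at 42.4, so a change in either may be understated. At 6 h, 3 serine proteases rose: Klk6 (1.91), Tmprss2 (1.37) and Klk8 (0.72).

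Over all genes 1.43% rose and 0.951% fell at 48 h. Of 38 other measured protease inhibitors, outside the 5 families or their naming pattern, 1 rose and 2 fell (median 0.000458). These were Itih2, a heavy chain of the inter-alpha-trypsin inhibitor (0.99, adjusted p = 0.0118), Kng1, the kininogen gene (-0.74, adjusted p = 0.0186), and Slpi, a whey acidic protein inhibitor of elastase (-0.28, adjusted p = 0.000676). Cstb, the ubiquitous stefin B, lies outside the naming pattern and had a change of -0.11 (not called). At 6 h only Timp3, an inhibitor of matrix metalloproteinases, was called, at -1.18.

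**Figure D4:**
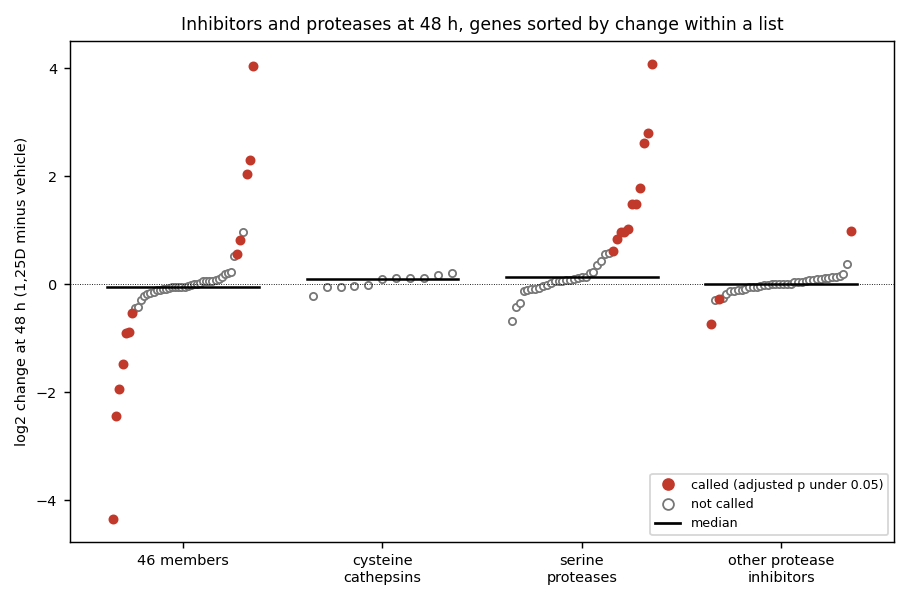
Log2 change at 48 h (1,25D minus vehicle) of every measured gene in the 46 members and in 3 lists: cysteine cathepsins (11 genes), serine proteases (37) and other protease inhibitors (38), sorted within each list. Red points passed an adjusted p under 0.05 and black lines are medians: called members lie at both ends, called serine proteases only at the top, and no cathepsin is red.

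Markers of other cell states were followed beside these genes, because stefins, S100a8 and several Wfdc genes are also known from granulocytes and macrophages. Of 10 neutrophil and myeloid markers, S100a8 (0.88) and S100a9 (0.92) rose at 48 h. The summed signal of that list was 12.02 to 12.06 in vehicle 6 h, 12.38 to 12.52 in 1,25D 6 h, 14.05 to 14.15 in vehicle 48 h and 14.37 to 14.48 in 1,25D 48 h. Over time in vehicle Ltf (2.72), S100a9 (2.53) and S100a8 (0.85) rose, 3 of the 10, and the median change of the list was -0.00585 (0.0575 with 1,25D at 48 h), so the sum follows a few bright genes. The other markers of that list, Mpo, Elane, Ltf, Camp, Ngp, Itgam, Csf3r and Lyz2, were not called at 48 h. By mean signal Itgam lay at the percentile 11.5 of all probe sets and Elane at 43.9. Of the 10 markers 7 lay above the lowest 40%, and 1 rose with 1,25D at 6 h. The general leukocyte marker Ptprc lay at the percentile 15.9 and was not called, while Cd68 rose by 1.23. Of 5 measured leukocyte markers 3 lay above the lowest 40%. The summed signal of the 5 was 8.45 to 8.55 in vehicle 48 h and 8.87 to 9.21 in 1,25D 48 h.

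Of 6 stratified epithelium markers, 3 rose at 48 h: Krt4 (3.32), Sprr1a (1.7) and Krt13 (1.26). At 6 h, 1 of the 6 rose. The summed signal of the 6 was 10.68 to 11.3 in vehicle 48 h and 12.44 to 13.11 in 1,25D 48 h. Of the luminal keratins Krt8 (-0.43) and Krt18 (-0.34) fell and Krt19 (0.58) rose, with sums of 14.85 to 14.87 and 14.52 to 14.58. Of 5 basal, 6 stromal, 4 endothelial and 2 neuroendocrine markers none was called at 48 h. The part of these marker changes in the inhibitor results was not tested.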

How the data were processed

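Total RNA of 13 samples was labelled with biotin and hybridised to Affymetrix mouse arrays, per the labels' protocols. The deposited values are log2 signals made by the authors, from 3.05 to 14.45. The submitters' processing notes name MAS5, with no version or role; no source used here describes the normalization further. There are 45101 probe sets, as on a whole-genome array, although the design text names a smaller chip. After 64 controls were removed, 34945 of 45037 probe sets had 1 symbol, 932 several and 9160 none; names came from the platform annotation, and all 46 members matched the GRCm38.p6 gene table.

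Group means over all 13 arrays were fitted with limma 3.58.1 (R 4.3.3, eBayes with an intensity trend, two-sided) on the deposited log2 values with no offset. The 2 arrays that stand apart were kept. The scripts were tested on simulated data. Alternatives were quantile normalization, median centring, an offset of 16, no trend, a robust prior, no probe sets in the lowest 40%, only the groups compared, array quality weights, a replicate block, other probe set rules, and leaving out arrays. Members, lists, naming rule and alternatives were chosen with earlier results of these data known. Genes with values in every array are those called at 6 h or 48 h; genes with a change or mean only are those called in the other comparisons and the 2 highest of each family, and of each other list up to 4 with the smallest p at 48 h. Upstream windows came from a RefSeq GRCm38.p6 table. The number of arrays limits precision.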

Additional observations from a re-analysis of the deposited data

Results flagged for a closer look

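In 4 members, 1 of the 4 arrays of the 1,25D 48 h group lay far from the other 3, a distance that chance gives in about 1 in 20 groups; groups of 3 arrays were not examined in this way. The array was replicate 4, one of those that stand apart, for Serpinb2 (7.01), Serpinb6b (5.87) and Serpinb9 (8.04), and replicate 1 for Cst3 (10.64). Each of these values was the lowest of its group.

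For 6 members the change at 48 h differed from that at 6 h by a test of the difference itself in limma: Stfa2l1 (3.83), Serpinb2 (2.21), Stfa3 (1.62), Wfdc17 (-1.76), Wfdc3 (-2.28) and Spink12 (-4.03).

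A probe set that is annotated to several genes, a stefin among them, was outside the members by the rule. It rose by 2.54 at 48 h with 1,25D against vehicle.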

How the results depend on the processing

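At 48 h the count of called members was 10 to 14 over the alternatives other than leaving out 1 array, against 12 as reported, and 9 to 12 when each array was left out. At 6 h it was 0 as reported and 0 without each array, 1 after quantile normalization (Stfa3), and 2 with no intensity trend, without the lowest 40% of probe sets and with array quality weights (each time Stfa3 and Serpinb9b). The difference of the responses was called for 5 to 7 members, the vehicle change over time for 12 to 19 and the 1,25D change over time for 12 to 21. With a replicate block 10 members were called at 48 h, 9 of them among the 12. Serpinb9b (adjusted p = 0.0818), Spink5 (0.0589) and Wfdc12 (0.13) were not called and Serpinb1a was (0.0374). Only 1,25D 48 h has a replicate 4, so the block also takes that array out of the comparison. Same-numbered arrays did not all deviate together (correlations of residuals -0.543 to 0.482), so the replicate numbers were not taken as pairs; the block also added Serpinb2 (-0.69) over time in vehicle. In a fit of only the groups compared, Serpinb9b (0.0944) and Wfdc12 (0.0697) were not called at 48 h. With the median probe set of each gene, Wfdc3 reversed to 0.13 at 48 h, 0.06 for the difference of the responses and -0.03 over time in vehicle, because another, dimmer probe set stands for the gene. Over all 18193 genes, calls at 48 h were 588 higher and 455 lower with array quality weights against 261 and 173, and 161 and 110, 164 and 96, and 183 and 92 without vehicle 48 h replicate 1, 2 and 3. At 6 h they were 59 and 9 in a fit of only the groups compared, 152 and 79 with array quality weights, 117 and 57 without vehicle 6 h replicate 1 and 140 and 108 without both arrays that stand apart, against 125 and 30. For the difference of the responses they were 149 and 113 with weights, 130 and 69 without both arrays, 39 and 27 without 1,25D 6 h replicate 1 and 42 and 33 without vehicle 48 h replicate 2, against 63 and 52. Over the named members in 4 comparisons, 17 gene results lost a call in the same direction, the 3 Wfdc3 results above lost it with a reversal and 17 gained one under settings other than leaving out 1 array, and 29 lost and 2 gained one when 1 array was left out. Signals near background limit the 18 dim members, whose changes may be understated.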
